A study of Mus musculus with 2 samples.

Results

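Cycling KPC tumor cells were described in 2 single-cell RNA libraries of mouse pancreatic tumors. They were the 325 tumor cells with the highest share of their UMIs (unique molecules counted per gene and cell barcode) in the 5 genes Mki67, Top2a, Birc5, Ube2c and Cenpf, out of 3249 tumor cells and 11249 barcodes that passed the filters. A barcode passed with 3000 UMIs or more, 200 to 5000 detected genes and up to 8% of its UMIs in mitochondrial genes. A tumor cell held 2 UMIs or more of the keratins Krt8 and Krt18 together, no Ptprc (the leukocyte marker CD45), no Pecam1 (endothelial), up to 1 UMI of Dcn and Lum (fibroblast) and under 0.2% of its UMIs in the macrophage genes Lyz2, C1qa, C1qb and C1qc. The top 10% by score, over both libraries pooled, were called members, and the other 2924 tumor cells served as the comparison. The members were therefore selected on measured values.

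KPC cells, a line of mouse pancreatic cancer that carries Pdx1-cre and P53(R172H) among its alleles, had been injected in Matrigel under the pancreatic capsule of male mice. Hosts of the FLOX library carried the floxed allele of Slc16a1, the gene of the lactate transporter MCT1. Hosts of the MCT1-KO library carried it together with Col1a2-CreERT2, a Cre recombinase that tamoxifen activates in collagen-producing cells such as pancreatic stellate cells (PSCs). Whether the FLOX hosts carried this Cre as well could not be told from the labels. The study's methods give intraperitoneal tamoxifen for 5 to 6 days before implantation. Elsewhere the study names a longer course and corn oil as the alternative to tamoxifen, and which of the agents the hosts of each library received could not be told from the labels. The study's methods name a harvest at 2 to 3 weeks and purchased C57BL/6 mice of 8 weeks of age beside the Cre line, without giving the age of the hosts of these libraries or the number of tumors behind each. The same injected line was used in both hosts, so the deletion lay in the host and not in the tumor cells described here. Cells were dissociated enzymatically and were not sorted. With 1 library per host genotype, genotype and library cannot be told apart, no test was possible, and ratios and shares are given with 95% intervals that cover counting error only.

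A dividing cell passes through S phase, in which its DNA is copied, and G2, in which it prepares for division, before the chromosomes are separated in mitosis (M). Genes for DNA synthesis are switched on around the start of S phase, largely by E2F factors, whereas most genes of chromosome condensation, the spindle and its checkpoint peak in G2 and mitosis under the MuvB complex with B-MYB and FOXM1. KPC tumors are known as a proliferative model of pancreatic cancer, and the genes of the score are markers of cycling cells that are highest in G2 and mitosis.

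Promoter sequences were examined because the genes higher in members fell into these groups. G2/M promoters are known for the CHR element (TTTGAA or TTCGAA) together with CCAAT boxes, and S-phase promoters for E2F motifs (searched as TTTGGCGC, TTTCCCGC, TTTGCCGC and TTTCGCGC). RefSeq promoters on GRCm38.p6, from 250 bases before to 50 bases after the start, were searched on both strands for 27025 genes. The sequences below run 5′ to 3′ along the gene's strand over the 150 bases before the start, outside annotated exons. They show 3 genes of the score (Top2a, Mki67 and Cenpf), 3 genes among those with the largest ratios below (Hmmr, Nuf2 and Kif2c) and 2 replication genes (Mcm5 and Mcm6). Capitals mark CCAAT (or ATTGG on the other strand), CHR and E2F matches.

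Top2a, chr11:99024190-99024339, minus strand: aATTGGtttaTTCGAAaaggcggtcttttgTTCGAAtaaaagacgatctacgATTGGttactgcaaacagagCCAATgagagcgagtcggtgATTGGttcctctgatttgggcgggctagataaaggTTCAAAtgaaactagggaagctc
Mki67, chr7:135716380-135716529, minus strand: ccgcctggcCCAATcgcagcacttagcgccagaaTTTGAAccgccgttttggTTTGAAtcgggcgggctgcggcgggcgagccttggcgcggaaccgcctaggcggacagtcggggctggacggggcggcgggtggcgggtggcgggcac
Cenpf, chr1:189688087-189688236, minus strand: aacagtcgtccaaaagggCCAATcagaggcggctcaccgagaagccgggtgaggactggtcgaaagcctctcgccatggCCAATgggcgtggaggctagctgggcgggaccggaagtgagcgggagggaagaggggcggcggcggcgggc
Hmmr, chr11:40733438-40733587, minus strand: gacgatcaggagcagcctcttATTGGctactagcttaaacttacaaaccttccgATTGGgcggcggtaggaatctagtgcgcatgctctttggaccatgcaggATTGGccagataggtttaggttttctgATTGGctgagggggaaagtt
Nuf2, chr1:169531465-169531614, minus strand: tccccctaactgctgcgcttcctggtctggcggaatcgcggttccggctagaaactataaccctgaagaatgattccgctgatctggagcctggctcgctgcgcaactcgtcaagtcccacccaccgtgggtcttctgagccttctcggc
Kif2c, chr4:117178773-117178922, minus strand: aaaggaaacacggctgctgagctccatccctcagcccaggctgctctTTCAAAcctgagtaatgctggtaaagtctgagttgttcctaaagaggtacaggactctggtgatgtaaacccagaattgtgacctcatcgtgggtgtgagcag
Mcm5, chr8:75109359-75109508, plus strand: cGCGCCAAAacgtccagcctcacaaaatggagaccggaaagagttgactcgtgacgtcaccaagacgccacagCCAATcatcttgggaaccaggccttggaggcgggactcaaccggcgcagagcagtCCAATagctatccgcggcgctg
Mcm6, chr1:128359706-128359855, minus strand: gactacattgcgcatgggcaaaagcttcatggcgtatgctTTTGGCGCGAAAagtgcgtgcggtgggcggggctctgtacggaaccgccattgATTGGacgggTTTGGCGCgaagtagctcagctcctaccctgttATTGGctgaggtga

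The Top2a stretch held 4 CCAAT matches and 3 CHR matches, Mki67 held 1 and 2, and Cenpf and Hmmr held 2 and 4 CCAAT matches, with 1 CHR match each elsewhere in the searched window. Kif2c held 1 CHR match and no CCAAT match, and Nuf2 held no match of any kind in the whole window. Mcm5 held 2 CCAAT matches and 1 E2F match, and Mcm6 held 2 CCAAT matches and 3 E2F matches, of which 2 overlap each other. Neither Mcm stretch held a CHR match. CHR matches were found in 31 of 42 promoters of the G2/M list used below (73.8%), in 5 of 31 of the S-phase list (16.1%), in 13.5% of the 8156 promoters of genes compared below and in 19.4% of all promoters. CCAAT and CHR occurred together in 59.5%, 12.9%, 5.69% and 7.70% of these promoters, respectively. E2F matches were found in 4.76% of G2/M promoters, 11 of 31 S-phase promoters (35.5%), 4.34% of the genes compared and 2.32% of all promoters, so the G2/M list stood close to the genes compared. CCAAT was found in 76.2%, 71.0%, 39.0% and 37.9%. Among the genes called 2-fold higher in members below, 44.3% of 219 promoters held CHR, and among those called lower 12.1% of 116, close to the 13.5% of the genes compared. E2F matches were found in 14.6% and 0.862% of these promoters, and CCAAT in 61.6% and 39.7%. Of the 5 score genes, 4 promoters held both CCAAT and CHR, and the genes called higher include 42 of the G2/M list. The CHR share of the genes called higher is thus not independent of the choice of cells. A match describes the letters only, and no match says nothing about the factor.

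The 5 genes of the score are described first because they chose the cells. Mki67 (a coat protein of mitotic chromosomes) had 251 CPM in members against 11.9 CPM in the other tumor cells of FLOX, and 265 against 15.2 CPM in MCT1-KO (CPM, the gene's UMIs scaled to 1000000 summed UMIs of the group). Top2a, which untangles DNA before chromosomes separate, had 497 CPM in members against 47.5 CPM in the other tumor cells of FLOX, and 502 against 44.2 CPM in MCT1-KO. The other tumor cells thus kept a level of Top2a near 56.1 and 58.3 CPM, its level in barcodes of 10 to 100 UMIs, which hold mostly free RNA. Birc5 (survivin, a subunit of the chromosomal passenger complex) had 395 CPM in members against 14.2 CPM in the other tumor cells of FLOX, and 401 against 20.7 CPM in MCT1-KO. Ube2c, the ubiquitin-conjugating enzyme that works with the anaphase-promoting complex, had 646 CPM in members against 11.5 CPM in the other tumor cells of FLOX, and 488 against 9.73 CPM in MCT1-KO. Cenpf, a kinetochore protein, had 383 CPM in members against 10.2 CPM in the other tumor cells of FLOX, and 379 against 10.3 CPM in MCT1-KO. In GENCODE vM21 on GRCm38 these genes lie at chr7:135689784-135716361 (Mki67), chr11:98992943-99024189 (Top2a), chr11:117849251-117855743 (Birc5), chr2:164769898-164778822 (Ube2c) and chr1:189640606-189688086 (Cenpf).

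Members held 3 to 108 UMIs of these genes, with a median of 20, and the other tumor cells 0 to 20, with a median of 1. All 5 genes were detected in 53 of 119 FLOX members (44.5%) and 122 of 206 MCT1-KO members (59.2%), and a single gene in 3 and 4 members. A score of 0 was found in 1198 tumor cells (36.9%). The threshold was 0.0849% of a cell's UMIs, the member median 0.179% and the highest 0.661%. The 10 members nearest the threshold had scores of 0.0849% to 0.0875% from 3 to 19 UMIs, and the 10 nearest cells outside it 0.0827% to 0.0849% from 3 to 13 UMIs. Cells on both sides of the threshold thus rested on few molecules.

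The FLOX files held 177334432 UMIs and the MCT1-KO files 151118092, and the members' UMIs summed to 1237036 and 2838637. Members were shallower than the other tumor cells, with medians of 8659 against 16895 UMIs in FLOX and 13789.5 against 16205 UMIs in MCT1-KO. Barcodes with under 1% mitochondrial UMIs made up 48 of 119 FLOX members (40.3%) against 153 of 904 other tumor cells (16.9%), and 33 of 206 (16.0%) against 129 of 2020 (6.39%) in MCT1-KO. In these members Malat1, a nuclear RNA, took a median of 0.0646% and 0.0402% of UMIs, against 0.533% and 0.395% in members with 1% or more. Their part in the results was not tested, but the counts of genes higher and lower and the medians of the S-phase and G2/M lists each stayed within 1.5 times of the values below when only cells with 1% or more were ranked. The libraries shared 20 of the passing barcodes, 3 of the tumor cells and none of the members. One FLOX member held 1951 of the 1957 Tff2 UMIs of its group, with 466 UMIs of Gkn3 and 328 of Pgc, genes of gastric mucosa, which goes against the KPC label for that cell. Of the other tumor cells, 7 in FLOX and 3 in MCT1-KO held 5 or more Tff2 UMIs. Acinar markers took 1% or more of the UMIs in 6 and 38 of the other tumor cells, up to 44.4% and 51.5%, and in 2 MCT1-KO members. Whether these are KPC cells was not tested.

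The epithelial label was checked with Krt19, Msln and Epcam, which the rule had not used. At 3000 UMIs per cell, to which each cell was thinned at random, Krt19, a duct keratin, was detected in 16.0% and 14.1% of FLOX and MCT1-KO members (unthinned, 28.6% and 27.2%) against 9.51% and 10.3% of the other tumor cells (29.3% and 28.8%). Msln (mesothelin) was detected in 8.40% and 12.1% of members (unthinned, 17.6% and 34.5%) against 5.86% and 12.4% of the other tumor cells (21.3% and 34.8%). Epcam, a defining epithelial marker, was nearly absent, with UMIs in 2 FLOX members and 1 MCT1-KO member before thinning. Krt8 and Krt18, which the rule required, were alike in members and other tumor cells, at 1084 against 1048 CPM in FLOX and 1339 against 1203 CPM in MCT1-KO. The whole list of 12 epithelial genes summed to 1472 CPM against 1457 CPM in FLOX and 1906 CPM against 1827 CPM in MCT1-KO, beside 1387 and 1648 CPM in barcodes of 10 to 100 UMIs. The mesenchymal gene Vim (vimentin) stood at 2872 and 3196 CPM in members. Beyond the keratins that the rule fixed, the epithelial label thus rested on few markers.

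Members made up 119 of 1023 FLOX tumor cells (11.6%, 9.73% to 13.8%) and 206 of 2226 MCT1-KO tumor cells (9.25%, 8.08% to 10.5%). The share moved with depth and with the mitochondrial share. Among cells with 1% or more mitochondrial UMIs it was 8.64% (6.81% to 10.8%) in FLOX and 8.38% (7.22% to 9.66%) in MCT1-KO, and among cells under 1% it was 23.9% (18.2% to 30.4%) and 20.4% (14.5% to 27.4%). Among cells of 3000 to under 5000 UMIs it was 19.6% (13.6% to 26.8%) in FLOX and 19.9% (14.8% to 25.9%) in MCT1-KO. Among cells of 10000 UMIs or more it was 7.41% (5.57% to 9.63%) and 7.27% (6.09% to 8.61%). Only in the middle class, 5000 to under 10000 UMIs, did the point values stand well apart, at 20.9% (15.2% to 27.5%) and 12.8% (9.25% to 17.1%), and these intervals overlap. The limit of 5000 genes also mattered, since it set aside 754 FLOX and 703 MCT1-KO tumor cells, of which 143 (19.0%, 16.2% to 21.9%) and 250 (35.6%, 32.0% to 39.2%) lay above the threshold. With these cells ranked too, the top 10% held 9.79% of FLOX and 10.1% of MCT1-KO tumor cells, so the order of the libraries turned. Part of the deeply sequenced cycling cells is therefore outside the members by the rule.

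**Figure D1:**
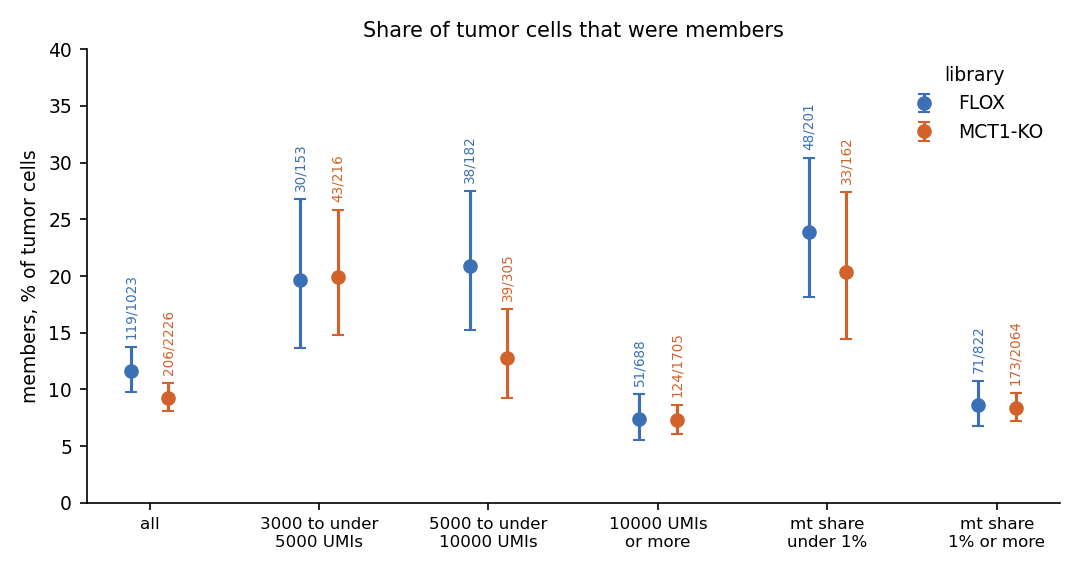
Share of tumor cells that were members (%, vertical axis) in the FLOX and MCT1-KO libraries, for all tumor cells and by UMI and mitochondrial class, with bars for the exact 95% interval (counting error only). The shares of both libraries lie at 19.6% and 19.9% among cells of 3000 to under 5000 UMIs and at 7.41% and 7.27% among cells of 10000 UMIs or more.

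Few of the genes compared differed by 2-fold between members and other tumor cells, and cell-cycle genes had the largest ratios. Of 10264 genes with 50 UMIs or more in the tumor cells of each library, the score genes left out, 281 were at least 2-fold higher in members in both libraries (2.74%) and 161 were at least 2-fold lower in both (1.57%). The median ratio of members over other tumor cells was 0.945 in FLOX and 0.924 in MCT1-KO over all genes compared. Of the 281, 133 belonged to the cell-cycle lists described here and 148 did not. Because a gene can reach the minimum through the members alone, each list is also given by the summed UMIs of all its genes. The number of genes higher was 109 with a minimum of 200 UMIs and 440 with a minimum of 10, and the number lower 68 and 426.

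The 43 genes of the S-phase list, which encode the DNA replication machinery and its partners, were moderately higher. Of the 38 that reached the minimum, 21 were at least 2-fold higher in both libraries and 1, Ung, was lower. Their median ratios were 2.80 and 2.26, and the summed list was 2.42-fold (2.30 to 2.54) in FLOX and 2.18-fold (2.11 to 2.26) in MCT1-KO. The medians were 1.60 in FLOX and 1.64 in MCT1-KO when cells over 5000 genes were kept. They were 1.80 and 1.79 when 5 stromal genes were limited to 1 UMI in a tumor cell, and 1.90 and 1.81 with a gene minimum of 200 UMIs. Ung, a uracil-DNA glycosylase, rested on 2 and 4 UMIs in members, with ratios of 0.457 and 0.391, and was not called under 14 of the alternatives.

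Subunits of the MCM helicase, which is loaded at replication origins and unwinds DNA, differed among themselves. Mcm5 was higher 4.09-fold (2.78 to 5.90) in FLOX and 2.92-fold (2.24 to 3.77) in MCT1-KO, Mcm3 2.94-fold in FLOX and 2.23-fold in MCT1-KO, and Mcm7 2.94-fold in FLOX and 2.34-fold in MCT1-KO. Mcm2 had ratios of 1.06 and 2.19, Mcm4 1.95 and 1.46 and Mcm6 1.56 and 1.74, so these 3 did not reach 2-fold in both libraries. Pcna, the sliding clamp of the replicative polymerases, had 115 CPM in members against 62.1 CPM in the other tumor cells of FLOX, and 105 against 76.0 CPM in MCT1-KO, ratios of only 1.85 and 1.39. Larger ratios were found for Prim1 (a primase subunit, 3.99 and 3.85), Pole (the leading-strand polymerase, 5.72 and 5.88), Lig1 (which joins Okazaki fragments, 3.17 and 3.75) and Cdc45 (part of the active helicase, 4.39 and 5.70). In all, 16 of 30 tested genes of licensing and fork were at least 2-fold higher, with median ratios of 2.65 and 2.16 and a summed list 2.25-fold (2.12 to 2.38) in FLOX and 1.97-fold (1.90 to 2.05) in MCT1-KO. The licensing factors Cdc6 (1.55 and 0.712) and Cdt1 (1.41 and 1.12), which act in G1, did not reach 2-fold. Gmnn (geminin), the inhibitor of Cdt1 that accumulates from S phase to mitosis, was higher 5.12-fold (3.87 to 6.74) in FLOX and 6.22-fold (5.24 to 7.37) in MCT1-KO.

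Enzymes that supply deoxynucleotides were higher as well, 5 of 8 at least 2-fold in both libraries. Tk1, the thymidine kinase of S phase, had 134 CPM in members against 8.10 CPM in the other tumor cells of FLOX, and 117 against 11.1 CPM in MCT1-KO, so that it was higher 16.6-fold (12.9 to 21.3) in FLOX and 10.5-fold (9.03 to 12.3) in MCT1-KO. Rrm2, the regulated subunit of ribonucleotide reductase, was higher 6.93-fold (5.25 to 9.09) in FLOX and 6.22-fold (5.18 to 7.44) in MCT1-KO, and its partner Rrm1 3.51-fold in FLOX and 3.5-fold in MCT1-KO. Tyms (thymidylate synthase) had ratios of 3.61 and 2.60, whereas Dut (dUTPase) stood at 1.52 and 1.41. The 8 genes summed to 994 CPM against 429 CPM in FLOX and 917 CPM against 449.7 CPM in MCT1-KO.

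Histone genes of the replication-dependent clusters gave 9 of 12 genes at least 2-fold higher, with median ratios of 4.05 and 4.99 and a summed list 3.05-fold (2.91 to 3.19) in FLOX and 2.45-fold (2.37 to 2.53) in MCT1-KO. Hist1h2ae, a histone H2A gene, had 265 CPM in members against 15 CPM in the other tumor cells of FLOX, and 148 against 8.32 CPM in MCT1-KO. Hist1h2ab was higher 22.3-fold (14.6 to 34.6) in FLOX and 17.9-fold (13.2 to 24.5) in MCT1-KO, and the linker histone gene Hist1h1b 8.82-fold in FLOX and 12.9-fold in MCT1-KO. Hist1h1c (1.43 and 1.20) and Hist1h2bc (1.66 and 1.07), which are also known to be expressed outside S phase, had ratios close to 1. Histone genes of 1 cluster are near-identical, so reads may be split among them. Of 11 genes of DNA repair by homologous recombination, 5 reached the minimum and all 5 were at least 2-fold higher, among them the helicase gene Brip1, 9.05-fold (5.53 to 14.7) in FLOX and 6.16-fold (4.40 to 8.57) in MCT1-KO. All 11 summed to 5.69-fold (4.79 to 6.75) in FLOX and 4.97-fold (4.42 to 5.58) in MCT1-KO.

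The G2/M list, with the score genes left out, separated members more widely. Of 49 genes, 47 reached the minimum and 42 were at least 2-fold higher in both libraries, with median ratios of 12.4 and 11.2. Their UMIs summed to 7929 CPM against 1605 CPM in FLOX and 8141 CPM against 1786 CPM in MCT1-KO, a list 4.94-fold (4.82 to 5.06) in FLOX and 4.56-fold (4.49 to 4.63) in MCT1-KO. In barcodes of 10 to 100 UMIs the list stood at 2092 and 2149 CPM, above the other tumor cells and far below the members. With a minimum of 200 UMIs the medians were 5.03 and 4.89. The score genes are known to peak with this list, so its ratios are not independent of the choice of cells.

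**Figure D2:**
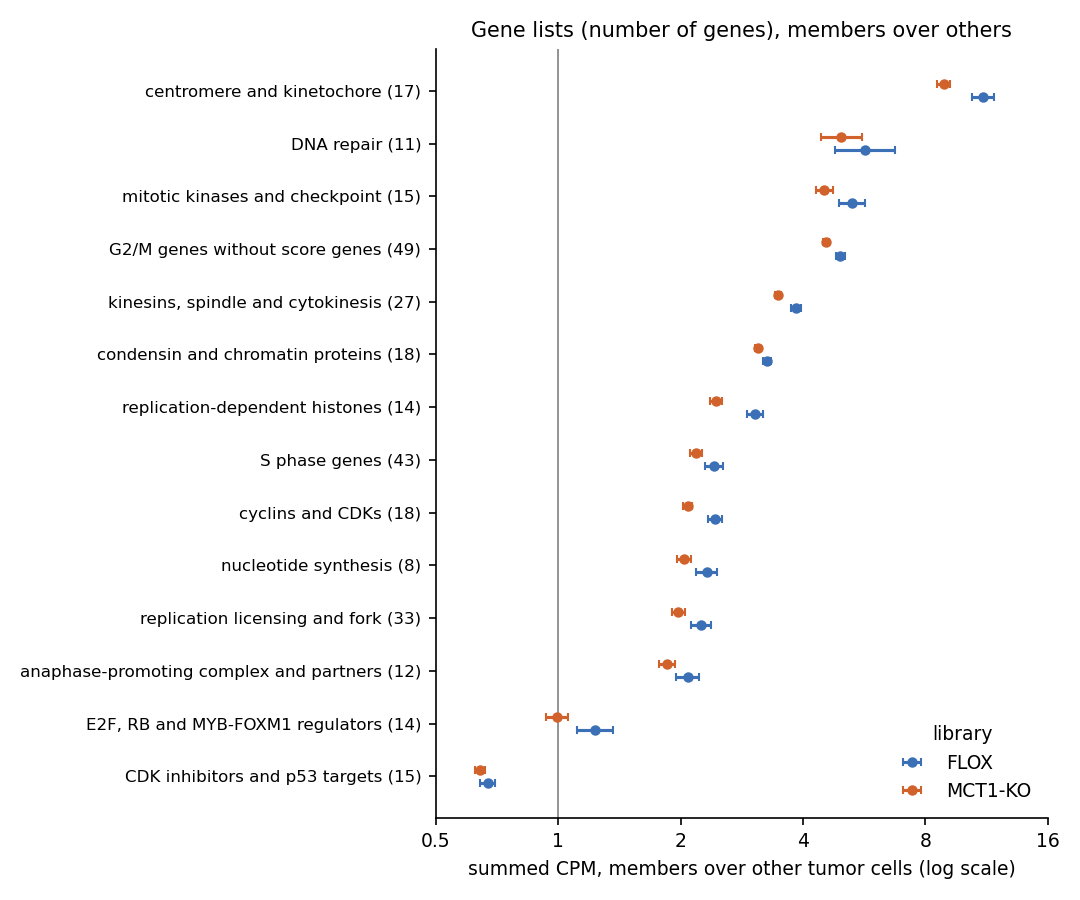
Ratio of the summed CPM of members over other tumor cells (horizontal axis, logarithmic) for each cell-cycle list, with the number of its genes, 1 point per library and bars for the 95% interval of counting error. The kinetochore list lies highest at 11.1 and 8.87, the S-phase list at 2.42 and 2.18, and the CDK inhibitors at 0.670 and 0.642.

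Among cyclins and their kinases, 9 of 17 tested genes were at least 2-fold higher, and the summed list was 2.43-fold (2.33 to 2.53) in FLOX and 2.08-fold (2.03 to 2.14) in MCT1-KO. Ccna2 (cyclin A2, of S phase and G2) was higher 31.1-fold (23.4 to 41.7) in FLOX and 23.2-fold (19.3 to 27.9) in MCT1-KO. Ccnb1 and Ccnb2, the cyclins of mitotic entry, were higher 24.0-fold in FLOX and 20.2-fold in MCT1-KO, and 13.3-fold in FLOX and 8.55-fold in MCT1-KO, respectively. Cdk1, the kinase they activate, had 268 CPM in members against 21.7 CPM in the other tumor cells of FLOX, and 231 against 23.0 CPM in MCT1-KO, and Cdc25c, a phosphatase that activates it, was higher 28.0-fold (16.4 to 49.5) in FLOX and 13.1-fold (9.60 to 17.8) in MCT1-KO. The small CDK-binding proteins Cks1b (4.38 and 3.99) and Cks2 (6.07 and 5.97) were higher in both libraries. Cyclins and kinases of G1 behaved otherwise, with ratios of 1.25 and 1.04 for Ccnd1, 0.667 and 0.591 for Ccnd2, 0.614 and 0.610 for Ccnd3, 1.15 and 1.06 for Cdk4 and 1.02 and 0.957 for Cdk6. Ccne1 (cyclin E1, of S-phase entry) had ratios of 3.13 and 0.978 from 14 and 10 UMIs in members.

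Of the CDK inhibitors and p53 targets, 1 of 12 tested genes was at least 2-fold higher. This was Cdkn2d (p19-INK4d), 6.02-fold (4.71 to 7.64) in FLOX and 5.39-fold (4.47 to 6.5) in MCT1-KO, an inhibitor of Cdk4 and Cdk6 that is known to oscillate with the cell cycle. Cdkn1a (p21), a p53 target, had ratios of 1.14 and 0.741, Cdkn1b (p27) 1.35 and 1.15, and the antiproliferative gene Btg2 0.503 and 0.541. Btg2 carried most of the UMIs of the list, which summed to ratios of 0.670 and 0.642 while its median ratios were 1.09 and 0.926. Cdkn2a (p16 and p19-ARF) had 1 UMI in FLOX members and 0 in MCT1-KO members, where 0 UMIs allow up to 1.06 CPM.

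Transcriptional regulators of the cycle were sparse. Of 14 genes, 10 reached the minimum and 1 was at least 2-fold higher, Rbl1 (p107, a relative of RB that is itself an E2F target), 3.29-fold (1.92 to 5.43) in FLOX and 4.14-fold (2.92 to 5.77) in MCT1-KO. Foxm1, which drives G2/M genes, had 15 and 38 UMIs in members and did not reach the minimum, with ratios of 10.3 (4.74 to 22.2) and 8.02 (5.12 to 12.4). E2f1, an activating E2F, had ratios of 0.760 and 1.29, and Myc, a growth regulator, 0.846 and 0.688. The whole list summed to 1.23-fold (1.11 to 1.37) in FLOX and 0.993-fold (0.932 to 1.06) in MCT1-KO.

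Of the genes of chromosome structure, 16 of 18 were at least 2-fold higher, and the summed list was 3.27-fold (3.20 to 3.34) in FLOX and 3.10-fold (3.05 to 3.14) in MCT1-KO. H2afz (the histone variant H2A.Z) had 1943 CPM in members against 574 CPM in the other tumor cells of FLOX, and 2348 against 702 CPM in MCT1-KO. Hmgb2, a DNA-bending protein of proliferating cells, was higher 5.03-fold (4.74 to 5.34) in FLOX and 4.89-fold (4.72 to 5.06) in MCT1-KO, and its relative Hmgb1 2.32-fold in FLOX and 1.99-fold in MCT1-KO. The condensin genes Ncapg and Smc2 were higher 26.8-fold in FLOX and 17.0-fold in MCT1-KO, and 10.4-fold in FLOX and 8.86-fold in MCT1-KO, respectively. Stmn1 (stathmin), which regulates microtubule growth, had ratios of 5.85 and 6.37, whereas Cbx5 (the heterochromatin protein HP1α) stood at 1.24 and 1.44.

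At the centromere and kinetochore, where chromosomes attach to the spindle, 15 of 16 tested genes were at least 2-fold higher, and the 17 genes summed 11.1-fold (10.4 to 11.8) in FLOX and 8.87-fold (8.54 to 9.22) in MCT1-KO. Nuf2, of the NDC80 complex that binds microtubules, was higher 30.2-fold (16.7 to 57.3) in FLOX and 30.2-fold (19.8 to 47.1) in MCT1-KO. The kinetochore motor gene Cenpe was higher 24.3-fold (19.4 to 30.8) in FLOX and 22-fold (19.1 to 25.4) in MCT1-KO. Cdca8 (borealin, a partner of Birc5) had ratios of 23.9 and 19.8 and Cenpa, the histone variant that marks centromeres, 12.5 and 10.3. Hjurp, the chaperone that deposits Cenpa in early G1, was the exception at 2.58 and 1.41.

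Among mitotic kinases and checkpoint genes 11 of 12 tested were at least 2-fold higher, with a summed list 5.28-fold (4.90 to 5.69) in FLOX and 4.51-fold (4.29 to 4.74) in MCT1-KO. Plk1 was higher 45.7-fold (30.7 to 69.9) in FLOX and 21.4-fold (17.1 to 27.0) in MCT1-KO, with 129 and 231 UMIs in members. Aurkb, the kinase of the chromosomal passenger complex, was higher 38.4-fold (23.7 to 64.8) in FLOX and 26.4-fold (20 to 35.3) in MCT1-KO, and Aurka, the kinase of the spindle poles, 35-fold in FLOX and 18.8-fold in MCT1-KO. The checkpoint kinase gene Bub1 had ratios of 24.8 and 13.7 and its binding partner Bub3, which is known to be expressed more constantly, 2.26 and 2.01. Wee1, which holds Cdk1 inactive, stood at 1.19 and 1.28.

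Genes of the anaphase-promoting complex and its partners differed among themselves. The core subunit gene Cdc27 was near the other tumor cells (1.07 and 1.11). The summed list was 2.08-fold (1.95 to 2.22) in FLOX and 1.85-fold (1.77 to 1.94) in MCT1-KO, with median ratios of 1.60 and 1.42. Of the 12 genes, 11 lay above 1 in both libraries, and 3 were at least 2-fold higher. These were the coactivator genes Cdc20, 22.6-fold (18.3 to 28.1) in FLOX and 13.2-fold (11.6 to 14.9) in MCT1-KO, and Fzr1 (Cdh1), 2.24-fold in FLOX and 2.46-fold in MCT1-KO, and the inhibitor gene Fbxo5 (Emi1), 19.6-fold (10.9 to 36.4) in FLOX and 21.9-fold (13.3 to 37.0) in MCT1-KO. Pttg1 (securin), a substrate of the complex, had ratios of 1.31 and 1.39 and its enzyme Ube2s 2.84 and 1.5.

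Of the kinesins and genes of the spindle and of cytokinesis, 24 of 25 tested genes were at least 2-fold higher, with median ratios of 15.2 and 12.5. The summed list of all 27 genes, in which the abundant tubulin genes weigh most, was only 3.85-fold (3.75 to 3.96) in FLOX and 3.47-fold (3.41 to 3.54) in MCT1-KO. Nusap1, which binds spindle microtubules, was higher 32.7-fold (24.0 to 45.1) in FLOX and 33.0-fold (26.0 to 42.1) in MCT1-KO. Kif2c, a microtubule-depolymerising kinesin, was higher 44.7-fold (24.6 to 86.8) in FLOX and 25.2-fold (18.1 to 35.6) in MCT1-KO, and Hmmr, a spindle-assembly factor, 40.5-fold (29.4 to 56.8) in FLOX and 28.8-fold (23.2 to 35.9) in MCT1-KO. Tpx2, an activator of Aurka, and Prc1, which bundles the midzone, had ratios of 18.4 and 13.8, and 12.0 and 14.5, respectively. The tubulin genes Tuba1b (3.83 and 3.46) and Tubb5 (2.72 and 2.46) were higher to a lesser degree, and Tuba1c, at 1.31 and 1.32, did not reach 2-fold.

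The 15 genes with the largest ratios, ranked by the library nearer to 1, were Nusap1, Esco2, Nuf2, Hmmr, Aurkb, Hist1h3b, Kif2c, Ckap2l, Depdc1a, Pimreg, Ccna2, Cep55, Cenpe, Troap and Plk1. Esco2, which acetylates cohesin in S phase, was higher 32.4-fold (19.2 to 56.8) in FLOX and 52.8-fold (32.8 to 88.8) in MCT1-KO. Hist1h3b, a histone H3 gene outside the list above, was higher 25.8-fold (14.3 to 48.6) in FLOX and 40-fold (21.8 to 78.1) in MCT1-KO. Cep55, which acts at abscission, the last step of cytokinesis, was higher 22.4-fold (15.7 to 32.5) in FLOX and 22.5-fold (17.6 to 28.8) in MCT1-KO. Ckap2l and Troap, spindle-associated genes, and Depdc1a and Pimreg, genes with peak expression in G2/M, had ratios from 21.5 (Troap in MCT1-KO) to 33.4 (Troap in FLOX). All 15 were represented in both libraries by 40 UMIs or more in members.

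**Figure D3:**
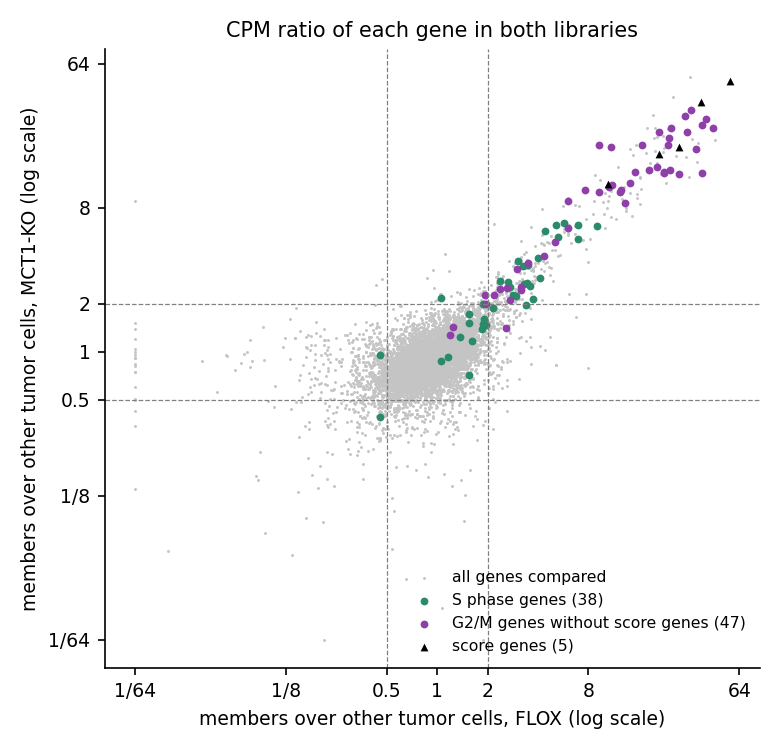
Ratio of members over other tumor cells in FLOX (horizontal axis) and MCT1-KO (vertical axis), both logarithmic, with 1 point per tested gene, colored by list, with score genes as triangles and dashed lines at 2-fold in both directions. Ratios below the axis limit are drawn at its edge, and most G2/M genes lie to the upper right of the S-phase genes, as Nusap1 at 32.7 and 33.0 against Mcm5 at 4.09 and 2.92.

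The 10 lowest ratios were led by immunoglobulin genes of plasma cells. Igha, the heavy chain of IgA, had 41.2 CPM in members against 305 CPM in the other tumor cells of FLOX, and 19.4 against 367 CPM in MCT1-KO, and Iglc1, Jchain and Iglv1 were among the 10 too. The 4 genes had 13542 and 16197 UMIs in the other tumor cells, of which 5 cells held 94.4% and 94.1%, and 4 cells in each library had 1% or more of their UMIs in them, up to 50.9% and 54.6%. In members the highest share was 0.0452% and 0.0305%. Without thinning, Igha was detected in 37.0% of members and 35.7% of other tumor cells of FLOX, and in 22.8% and 26.0% of MCT1-KO. With 5 keratin UMIs or more asked of a tumor cell, the higher of the ratios of both libraries turned above 1 for each, at 1.13 (Iglc1), 1.24 (Jchain), 1.29 (Igha) and 1.10 (Iglv1). The low ratios thus rested on a few cells outside the members.

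The other genes among the lowest had few UMIs in members. Gdpd2, a glycerophosphodiester phosphodiesterase gene, had 3.23 CPM in members against 38.2 CPM in the other tumor cells of FLOX, and 5.64 against 36.1 CPM in MCT1-KO. Gm5678, a predicted gene, had ratios of 0.195 and 0.140, and Fam110c 0.180 and 0.169, the latter from 1 and 2 UMIs in members. Apoc1, an apolipoprotein gene, had ratios of 0.165 and 0.0908 and Ly6c2, a monocyte surface gene, 0.148 and 0.133. Slc6a12, a betaine transporter gene, had 0 and 2 UMIs in members against 54 and 157 in the other tumor cells, and 0 UMIs allow up to 2.43 CPM in FLOX members. For Ly6c2 the higher of both ratios was 2.20 when 5 stromal genes were limited to 1 UMI in a tumor cell.

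Single members were compared after each cell was thinned to 3000 UMIs, so that depth was equal. They held a median of 22 G2/M UMIs in FLOX and 23 in MCT1-KO, against 4 and 5 in the other tumor cells. The median of S-phase UMIs was 4 in both libraries against 2. A cell was counted as high for a list when it exceeded the 90th percentile of the other tumor cells, 4 UMIs for S phase and 9 for G2/M. Among FLOX members, 61 (51.3%) were high for G2/M alone, 45 (37.8%) for both lists, 6 (5.04%) for S phase alone and 7 (5.88%) for neither. Among MCT1-KO members the numbers were 115 (55.8%), 77 (37.4%), 5 (2.43%) and 9 (4.37%). Of the other tumor cells, 85.1% and 84.9% were high for neither and 2.54% and 2.23% for both. The members were therefore mostly cells rich in G2/M RNA. Cells high for S phase alone made up 7.19% and 6.73% of the other tumor cells, of which about 10% exceed each limit by construction.

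**Figure D4:**
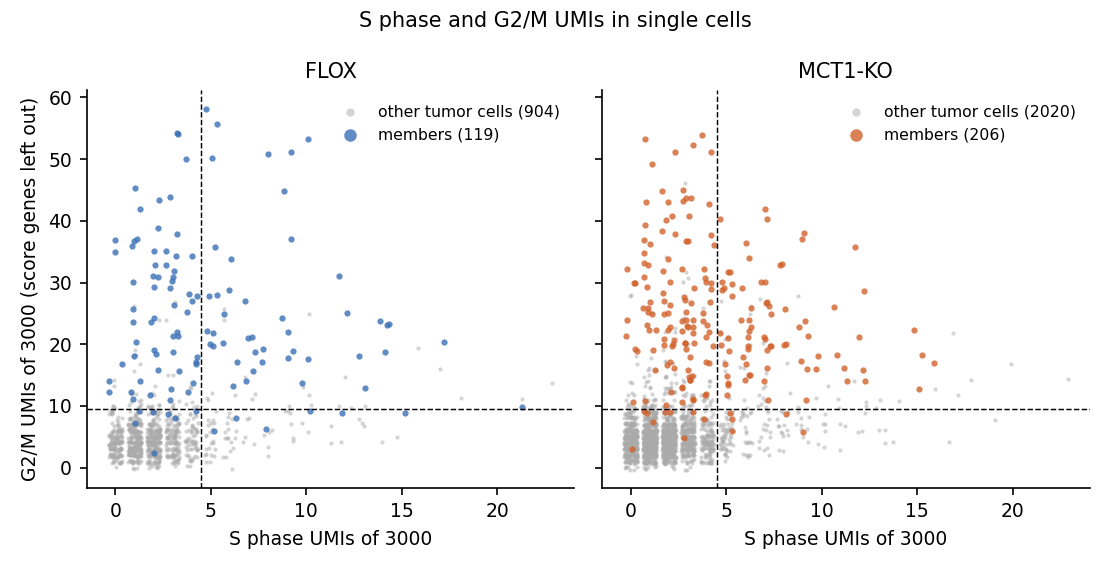
UMIs of the S-phase list (horizontal axis) and of the G2/M list without the score genes (vertical axis) per tumor cell thinned to 3000 UMIs, with 1 slightly jittered point per cell and 1 panel per library. Dashed lines mark 4 S-phase and 9 G2/M UMIs, and the members spread above the G2/M line with S-phase counts on both sides of theirs.

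Across members the S-phase and G2/M counts were weakly and negatively related, with Spearman coefficients of -0.09 (119 FLOX members) and -0.14 (206 MCT1-KO members). Across the other tumor cells the coefficients were positive, at 0.14 and 0.16. The members had been chosen on genes known to peak with the G2/M list. These and the following coefficients are descriptions, since the cells of a library share its preparation and all counts were low. The role lists compared share no genes. Replication and nucleotide genes had coefficients of 0.52 in FLOX and 0.22 in MCT1-KO, kinetochore and kinesin genes 0.55 and 0.48, condensin and kinesin genes 0.58 and 0.41, and mitotic kinases and kinesin genes 0.44 and 0.46. Between replication and mitotic lists they were lower and of both signs, at -0.10 and -0.02 for mitotic kinases, 0.12 and -0.08 for kinetochore genes, 0.14 and 0.04 for kinesin genes and 0.26 and -0.03 for condensin and chromatin genes.

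At equal depth Cdk1 was detected in 45.4% of FLOX and 43.2% of MCT1-KO members against 6.75% and 6.83% of the other tumor cells (unthinned, 73.1% and 72.8% against 25.1% and 25.9%). Cdc20 was detected in 40.3% and 42.2% against 3.65% and 3.17%, and Plk1 in 29.4% and 19.9% against 0.774% and 0.990%. Pcna was closer, at 26.1% and 24.8% against 17.3% and 19.0%. Neutrophils, which do not divide in tissue, were set beside them as cells that should lack this RNA. Of 17 FLOX neutrophils with a median of 4704 UMIs, unthinned, 2 held Cdk1, 3 Cdc20, 1 Plk1 and 3 Pcna, and of 6 MCT1-KO neutrophils with a median of 4715 UMIs none held any of them. Hmgb2 was not absent from neutrophils, with UMIs in 16 of the 17 and 5 of the 6. One of the FLOX neutrophils, with 13596 UMIs, lay above the threshold of the members, and of the other 16 neutrophils of FLOX 1 held Cdk1, 3 Cdc20, 1 Plk1 and 3 Pcna. Free RNA and neutrophils mixed with other cells were not told apart.

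Ranked by score, the tumor cells did not differ evenly. The G2/M list stood at 1506 CPM in FLOX and 1535 CPM in MCT1-KO cells with a score of 0, and still at 1635 and 1778 CPM in the eighth of 10 bins. It stood at 2857 and 3596 CPM in the ninth bin, just outside the members, and 7929 and 8141 CPM in the members. The S-phase list went from 589 and 583 CPM at score 0 to 1192 and 1220 CPM in the ninth bin and 1599 and 1538 CPM in the members. The ninth bin was thus closer to the members in S-phase than in G2/M RNA.

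**Figure D5:**
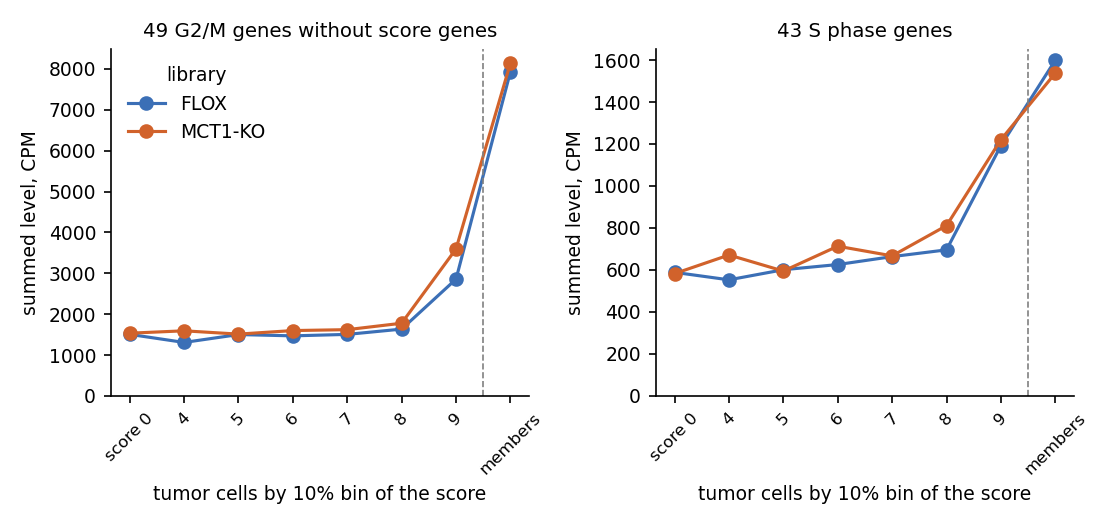
Summed CPM (vertical axes) of the G2/M and S-phase lists in tumor cells with a score of 0, in bins 4 to 9 of 10 by score and in the members (right of the dashed line), with 1 line per library. The G2/M list is nearly level up to the eighth bin (1635 and 1778 CPM) and stands at 7929 and 8141 CPM in the members.

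In 10 lists of cell states outside the cycle 2-fold differences were rare, as they were among all genes compared (2.74% higher and 1.57% lower). Among the tested epithelial, mesenchymal, interferon, cytokine, glycolysis, hypoxia, heat shock, immediate-early, ribosome biogenesis and autophagy genes, none was at least 2-fold higher in both libraries, and 2 were at least 2-fold lower. These were Enpp2 (autotaxin), with ratios of 0.324 and 0.427, and Cdh1 (E-cadherin), with ratios of 0.229 and 0.355 from 2 and 7 UMIs in members. Interferon-response genes, which include those of antigen presentation, summed to 9127 CPM against 9257 CPM in FLOX and 6029 CPM against 6104 CPM in MCT1-KO. Glycolysis genes with the lactate transporters had median ratios of 1.03 and 0.895, and Ldha (lactate dehydrogenase A) stood at 932 and 689.8 CPM in members. Slc16a1, the gene that the host's Cre targets, located at chr3:104638668-104658462 on GRCm38, had 29.9 CPM in members against 33.9 CPM in the other tumor cells of FLOX, and 39.1 against 46.2 CPM in MCT1-KO, beside 21.4 and 21 CPM in barcodes of 10 to 100 UMIs.

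Some lists differed by less than 2-fold in 1 direction. All 10 immediate-early genes, which respond to stimuli and to dissociation, had ratios below 1 in both libraries, with medians of 0.692 and 0.765 and sums of 11430.5 CPM against 16091 CPM in FLOX and 8342 CPM against 10477 CPM in MCT1-KO. Of 11 tested cytokine genes 10 were below 1 in both, with medians of 0.800 and 0.747, and of 14 autophagy genes 12, with medians of 0.754 and 0.782. Of 10 genes of ribosome biogenesis 9 were above 1 in both, with medians of 1.29 and 1.15. For scale, 27.3% of all genes compared were above 1 in both libraries and 45.5% below.

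Cell states were also counted per cell at equal depth, a cell being high when in the top 10% of tumor cells for a list. Mesenchymal-high cells made up 4.62% (2.61% to 7.5%) of members and 9.47% (8.44% to 10.6%) of other tumor cells. The corresponding shares were 1.68% and 5.09% in FLOX and 6.31% and 11.4% in MCT1-KO. Cytokine-high cells made up 6.77% of members and 9.95% of others. Interferon-high cells made up 14.3% of members and 16.9% of others in FLOX and 6.31% and 5.40% in MCT1-KO. Glycolysis-high cells made up 21.8% (14.8% to 30.4%) of FLOX members against 12.7% (10.6% to 15.1%) of the other FLOX tumor cells, but 7.28% against 7.92% in MCT1-KO. Heat-shock-high cells were 20.2% of FLOX members and 32.0% of other FLOX tumor cells, but 0 of 206 members (up to 1.77%) and 0.396% of others in MCT1-KO.

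The host genotypes were then compared within the members. Of 7372 genes with 50 UMIs or more over the members, 110 were at least 2-fold higher in the library labelled MCT1-KO (1.49%) and 115 at least 2-fold lower (1.56%). The members of both libraries were chosen by 1 threshold on cell-cycle genes, which by itself brings their cell-cycle content together. The S-phase list had an MCT1-KO over FLOX ratio of 0.962 (0.912 to 1.01) and the G2/M list 1.03 (1.00 to 1.05), against 1.06 (1.04 to 1.09) and 1.11 (1.10 to 1.13) in the other tumor cells. Members under 1% mitochondrial UMIs were 48 of 119 in FLOX but 33 of 206 in MCT1-KO. Among members of 1% or more, the S-phase list stood at 1442 CPM in FLOX and 1544 CPM in MCT1-KO. The G2/M list stood at 7524 and 8097 CPM there. Among members under 1% the S-phase list stood at 2072 and 1417 CPM, and the G2/M list at 9154 and 8932 CPM. The order of the libraries thus turned with the class, whose part in the ratios was not tested. Among genes of the S-phase, G2/M, cyclin, replication, nucleotide, kinetochore, mitotic kinase and kinesin lists with 50 UMIs or more over the members, none differed 2-fold. Lower by 2-fold in MCT1-KO were 2 of 11 genes of the CDK inhibitors and p53 targets, Gdf15 at 0.492 (0.419 to 0.578) and Plk2 at 0.488 (0.337 to 0.708), and 1 of 12 histone genes, Hist1h2ac at 0.461 (0.282 to 0.753). Of the cell-cycle lists histones had the lowest ratio, 0.747 (0.711 to 0.786) against 0.930 (0.906 to 0.954) in the other tumor cells. Ube2s, of the anaphase-promoting complex list, was lower as well, at 0.496 (0.363 to 0.678).

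Interferon, heat shock and hypoxia genes were lower in MCT1-KO both in members and in the other tumor cells, as were histones and the lists of immediate-early (0.730 and 0.651), cytokine (0.802 and 0.851) and glycolysis genes (0.786 and 0.908). Chromosome structure, epithelial and mesenchymal lists were above 1 in both, at 1.13 and 1.19, 1.29 and 1.25, and 1.22 and 1.19. Many cell-cycle lists lay below 1 in members and above 1 in the other tumor cells. Of these, only the S-phase list was compared by mitochondrial class above. The score genes, which chose the members, lay likewise at 0.937 (0.895 to 0.981) in members and 1.05 (0.983 to 1.12) in the other tumor cells. The lists of G2/M genes, of kinetochore genes (1.07 and 1.33) and of transcriptional regulators (1.14 and 1.41) lay above 1 in both. CDK inhibitors and p53 targets lay below 1 in both (0.865 and 0.904). Values on opposite sides of 1, with both intervals excluding 1, were found for cyclins and CDKs, nucleotide synthesis and, outside the cycle, ribosome biogenesis. The intervals cover counting error only, so these lists are named as a description. For the cell-cycle lists, the choice of members by the score bears on the ratio. Cyclins and CDKs summed to 0.925 (0.885 to 0.967) in members and 1.08 (1.06 to 1.10) in the other tumor cells, nucleotide synthesis to 0.923 (0.862 to 0.988) and 1.05 (1.02 to 1.08), and ribosome biogenesis to 0.930 (0.893 to 0.968) and 1.06 (1.05 to 1.07). Interferon-response genes summed to 0.661 (0.645 to 0.676) in members and 0.659 (0.655 to 0.664) in the other tumor cells, and 5 of 19 were at least 2-fold lower in MCT1-KO. Macrophage markers had lower ratios still, 0.413 (0.395 to 0.430) in members and 0.437 (0.432 to 0.443) in the other tumor cells, with 5 of 6 genes 2-fold lower in members, and their part in the interferon values was not tested. Isg15, an interferon-induced ubiquitin-like protein, had a ratio of 0.330 (0.269 to 0.405), Ifit3 0.158 (0.0957 to 0.253), and Cxcl9, a chemokine that attracts T cells, 0.281 (0.243 to 0.324). Heat shock genes had 0.634 (0.620 to 0.649) in members and 0.551 (0.547 to 0.555) in others, with 6 of 9 lower. Hspa1a, an inducible chaperone, had 0.0429 (0.0151 to 0.0988) in members and 0.0417 in others, and Hsph1 0.122 (0.0923 to 0.159) and 0.0958. Hypoxia genes summed to 0.710 (0.663 to 0.761) in members and 0.815 (0.800 to 0.831) in others, with 4 of 8 lower, and Slc16a1 had 1.31 (0.894 to 1.95) in members and 1.36 in others. In barcodes of 10 to 100 UMIs the interferon list stood at 9622 and 6056 CPM and the heat shock list at 6938 and 3806 CPM in FLOX and MCT1-KO, and their part in the result was not tested.

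The 10 genes most in excess in MCT1-KO members were pancreatic acinar genes, which encode digestive enzymes and secretory granule proteins. Ctrb1 (chymotrypsinogen B) had 18 UMIs in FLOX and 1236 UMIs in MCT1-KO members, a ratio of 29.9 (18.9 to 50.7), and Cela3b, an elastase, 32.4 (10.9 to 158) from 3 and 223 UMIs. Cpb1 had 0 and 117 UMIs, at least 17.0-fold higher against a floor of 3 UMIs. The other 7 were 2210010C04Rik, Reg2, Pnlip, Ctrl, Zg16, Sycn and Try4. The 10 acinar markers summed to 9.02 (7.69 to 10.6) in members and 1.89 (1.85 to 1.93) in the other tumor cells, and stood at 342 and 17539 CPM in barcodes of 10 to 100 UMIs. In MCT1-KO members 5 cells held 40.4% of the acinar UMIs, and the highest cell had 16.7% of its UMIs in them. The excess was also spread over many cells, with a median acinar share of 0.0532% in MCT1-KO members against 0 in FLOX members. Unthinned, Ctrb1 was detected in 84.5% of MCT1-KO and 10.1% of FLOX members, and in 86.4% and 12.1% of the other tumor cells. With only cells of 10000 UMIs or more ranked, 69 FLOX and 170 MCT1-KO cells were members, not all of them members above. Each of the 10 ratios then lay below 1, from 0.257 (Sycn) to 0.858 (Pnlip). In the main setting, 5 of the other FLOX tumor cells held 93.0% of the acinar UMIs of that group. Because the cells changed, these ratios do not show whether the excess depends on depth, which was not tested.

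The genes most in excess in FLOX members were led by Tff2, Gkn3, Pgc, Agr2 and Gast, gastric genes whose UMIs lay almost wholly in the 1 member named above. Reg3g, an antimicrobial lectin, had 50 UMIs in FLOX members, all in 1 cell, and its MCT1-KO over FLOX ratio was 2.05 when cells over 5000 genes were kept. Left were Hspa1a, Hspa1b, Hsph1 and Cdh18, of which the first 3 are heat shock genes. Cdh18, a cadherin, had 0.149 (0.0768 to 0.272) in members and 0.686 in others. With the cells of 5 or more Tff2 UMIs left out, 112 genes were higher and 115 lower in MCT1-KO members.

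Markers of other cell types in the members stayed below the level in barcodes of 10 to 100 UMIs for each list. Those barcodes hold mostly free RNA, so a lower level does not show that members were free of RNA or cells of other types. With 5 stromal genes limited to 1 UMI, 466 FLOX and 1306 MCT1-KO tumor cells were left, with 60 and 117 members. Macrophage markers, of which the rule limited 4, summed to 3571 and 1473 CPM in members, against 11928 and 6505 CPM in barcodes of 10 to 100 UMIs. Fibroblast and stellate markers summed to 1109 and 908 CPM against 1906 and 1409 CPM. T cell markers were at 9.70 and 7.05 CPM, B cell markers at 12.1 and 13.4 CPM, endothelial markers at 10.5 and 5.99 CPM and neutrophil markers at 124 and 97.2 CPM. Islet markers were at 0 UMIs in FLOX members and at 5.28 CPM in MCT1-KO members.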

How the data were processed

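Single-cell RNA was measured in 2 libraries, 1 per host genotype, grouped by the genotype label. The authors trimmed reads with Fastp and made UMI counts per gene and barcode with SeekOneTools, and the deposited files hold these raw counts for 32285 mouse genes, before any filter. The labels name the SeekOne MM kit, a microwell system, whereas the study's methods name the 10x Chromium platform or the SeekOne DD kit. The methods and processing notes name the human build GRCh38, so which build was counted against could not be told, and positions were taken from GENCODE vM21 (GRCm38) by gene identifier. The submitters' processing notes list Seurat 4.0.0, which was not used here.

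Barcodes, tumor cells and members were selected as stated in the report, and the members, lists and tests were chosen with earlier results of these data known. UMIs were summed per gene, group and library and divided by the summed total (CPM). Genes were compared between members and other tumor cells with 50 UMIs or more over the tumor cells of each library, and between libraries with 50 or more over the members. A gene was called at 2-fold or more, in both libraries for the first comparison. Ratios carry conditional exact 95% intervals and shares Clopper-Pearson intervals. Both cover counting error only, and no p-value is given because cells of 1 library are not replicates. Shares of cells with a UMI were given after each cell was thinned to 3000 UMIs, except where called unthinned.

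Named genes were those of the score and of the 33 lists, the 15 highest and 10 lowest ratios of members over others (ranked by the library ratio nearer to 1) and the 10 highest and 10 lowest ratios of MCT1-KO over FLOX in members (with counts under 3 set to 3). Some genes and alleles are not reported here. Doublets were kept. An alternative dropped from each library the 8% of barcodes whose 40 nearest neighbours held the most simulated doublets. Other alternatives changed the limits on UMIs, genes, mitochondrial share, keratin and stromal genes, the score and its threshold, the CPM total, the averaging and the gene minimum. The step that compares genes was run on simulated counts with set folds, all beyond the 2-fold limit, and without variation between cells. It therefore says nothing on ratios near the limit or on genes whose UMIs lie in few cells. Scripts used scipy 1.17.1 for intervals, scikit-learn 1.9.0 for doublet scores, matplotlib 3.10.9 for figures, and numpy 2.4.6 and pandas 2.3.3 under python 3.11.15.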

Additional observations from a re-analysis of the deposited data

Results flagged for a closer look

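For 7 genes of the lists the ratio of members over other tumor cells lay above 1 in one library and below 1 in the other, with both 95% counting intervals excluding 1. The lists matched 429 genes, and the share of all genes compared that meets this rule is not given, so the 7 cannot be set against it. The intervals cover counting error only and are narrow for abundant genes such as Vim. The difference between the libraries was not tested. Ldha, lactate dehydrogenase A, had a ratio of 1.27 in FLOX and 0.943 in MCT1-KO. Car9, a hypoxia-induced carbonic anhydrase, had 1.42 and 0.556. The stress-induced cytokine gene Gdf15 had 1.18 and 0.641, and the interferon-response genes Irf7 and Ifit3 had 1.49 and 0.639, and 1.34 and 0.526. Vim (vimentin) had 1.04 and 0.926, and Hspe1, a mitochondrial chaperone, had 0.769 and 1.16.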

How the results depend on the processing

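No paired analysis was possible because each genotype has 1 library and no test was made. The share of members in MCT1-KO minus that in FLOX, -2.38 percentage points, was 0.348 with no limit on genes, 0.0473 with the top 10% taken within each library, which sets both shares near 10% by its construction, -0.523 with the G2/M list as score, -0.627 with cells of 1% or more mitochondrial UMIs and -0.0584 with cells of 10000 UMIs or more. The difference was widest with 5 stromal genes limited to 1 UMI, at -3.92, and next with a minimum of 2000 UMIs, at -3.28. The shares were 6.06% and 4.49% for the top 5% and 21.6% and 19.3% for the top 20%, as the limit itself sets. The S-phase medians were 1.60 in FLOX and 1.64 in MCT1-KO with no limit on genes, and 1.80 and 1.79 with 5 stromal genes limited to 1 UMI. In the latter setting 166 genes were higher in members and 176 in MCT1-KO members. With a gene minimum of 200 UMIs the counts were 109 higher and 68 lower in members and 19 higher and 31 lower in MCT1-KO members, with G2/M medians of 5.03 and 4.89, and with a minimum of 10 UMIs they were 440, 426, 354 and 527, as other genes were then compared. Genes higher in MCT1-KO members numbered 167 with the G2/M list as score and 191 with means over cells. Genes lower in MCT1-KO members numbered 74 for the top 5% and 189 for the top 20%, and genes lower in members 61 for the top 20% and 107 with cells of 10000 UMIs or more. The G2/M median was not computed where the G2/M list was the score.

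Directions turned for these genes. Of the genes lower in members, Iglc1 was at 1.13, Jchain at 1.24, Igha at 1.29 and Iglv1 at 1.10 with 5 keratin UMIs or more. Ly6c2 was at 2.20 with 5 stromal genes, and Iglc1 at 1.01 with the 8% of barcodes of highest doublet score left out. Of MCT1-KO over FLOX in members, Reg3g was at 2.05 with no limit on genes and Sycn at 0.670 for the top 20%. With cells of 10000 UMIs or more the ratio was 0.380 for Cela3b, 0.747 for 2210010C04Rik, 0.410 for Ctrb1, 0.516 for Reg2, 0.702 for Cpb1, 0.858 for Pnlip, 0.430 for Ctrl, 0.474 for Zg16, 0.257 for Sycn and 0.675 for Try4. The cause was not tested.

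Of the alternative values of the main results, 180 stayed within 1.5 times of the main value or within its interval, 25 moved beyond it and 2 turned. For the difference between the shares, the limit was instead set from the width of the FLOX share's interval. By that limit, -0.523 and -0.627 were counted as staying, although they were much smaller than -2.38. Counts of the genes of each list moved beyond 1.5 times in 25 of the alternative values for genes higher, as from 16 to 4 for replication with a gene minimum of 200 UMIs and from 5 to 0 for DNA repair with 5 stromal genes limited to 1 UMI, and in 14 for genes lower, where the count of the S-phase list (Ung) went from 1 to 0. Of the named genes, 8 alternative values of those lower in members and 12 of those between libraries no longer reached 2-fold. All 285 alternative values of the 15 leading genes higher in members stayed at 2-fold or more. These 15 had been picked as the largest ratios of the same data. Nusap1, Nuf2, Hmmr, Aurkb, Kif2c, Ckap2l, Pimreg and Cenpe were also part of the score where the G2/M list was used. Their values in that alternative therefore follow from the choice of cells. Leaving out cells with 5 or more Tff2 UMIs, cells under 1% mitochondrial UMIs or cells under 10000 UMIs was chosen after seeing the data. Depth limits genes with few UMIs in the 325 members most, and rare RNAs were not detectable there.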

Other observations

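Cells of other types were scored by the same 5 genes and the threshold of the tumor cells. T cells, with 2 UMIs or more of Cd3d, Cd3e and Cd3g and no keratin UMI, lay above it in 31 of 181 cells in FLOX (17.1%, 11.9% to 23.4%) and 13 of 108 in MCT1-KO (12.0%, 6.57% to 19.7%). Macrophages lay above it in 67 of 884 (7.58%, 5.92% to 9.53%) and 49 of 915 (5.36%, 3.99% to 7.02%). Neutrophils gave 1 of 17 cells in FLOX and none of 6 in MCT1-KO, at median depths of 4704 and 4715 UMIs. Median depth was 4586 and 4479 UMIs in T cells and 6436 and 5199 UMIs in macrophages, against 15865 and 16103.5 UMIs in tumor cells. Under the limit of 5000 genes, the share of tumor cells above the threshold was higher among shallow cells. Of the tumor cells over that limit, 19.0% in FLOX and 35.6% in MCT1-KO lay above the threshold.

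T cells above the threshold held S-phase genes at 4015 and 3728 CPM, more than macrophages (2221 and 2105 CPM) and tumor cells (1599 and 1538 CPM). Their G2/M genes stood at 9947 and 8993 CPM, against 7617 and 7000 CPM in macrophages and 7929 and 8141 CPM in tumor cells. Free RNA and doublets with tumor cells were not separated from these values.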
